A study of Mus musculus with 22 samples.

Results

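Cd93 and Thbd lie next to each other on mouse chromosome 2 and were followed across leukemia cells with and without Nfkbie. They were chosen because their transcripts changed in opposite directions with the loss of Nfkbie in spleen and culture on one side and in the peritoneal cavity (PC) on the other, and because both genes seemed to move together from library to library. The differences between the genotypes and the joint movement are therefore given as descriptions, without a test. The table of estimated counts holds 62492 transcripts of 17023 annotated genes, and 2 of these transcripts, 1 of each gene, are described here.

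RNA was sequenced from 22 samples of the TCL1-355 TKO line, a murine leukemia line from the Eμ-TCL1 model of CLL, in which a human oncogene is expressed in B cells. All 6 groups share its biallelic loss-of-function lesions of tumor suppressor genes, including CDKN2A and CDKN2B, and a B-cell receptor that recognises the self lipid phosphatidylcholine. NFKBIE-ko cells had been electroporated with Cas9 ribonucleoprotein directed at Nfkbie, which encodes the NF-κB inhibitor IκBε, and NFKBIE-wt cells went through a mock edit. Before the experiment each genotype was grown in a C57BL/6 mouse of its own for 21 days, so that propagation and genotype cannot be told apart. The cells were then injected intraperitoneally into C57BL/6 recipients 2 to 3 months old and recovered 10 days later from the spleen (4 samples per genotype) and the PC (4 samples per genotype). These cells were not purified, so that cells of the recipient remain in the spleen and PC samples. The third compartment was cells taken from spleens of different mice and cultured apart for 2 weeks (3 samples per genotype), named in vitro below. The labels give blood as the tissue of every sample and name NFKBIE-wt cells at the start of the description of NFKBIE-ko samples, so genotype and compartment were taken from the titles.

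CD93 and thrombomodulin, the product of Thbd, are membrane proteins of the group XIV family of C-type lectins, together with CD248 and CLEC14A. CD93, the antigen recognised by the AA4.1 antibody, marks immature B cells in the mouse, is needed for the upkeep of long-lived plasma cells, and is also found on endothelium and myeloid cells, where it takes part in adhesion and in the clearance of dying cells. Thrombomodulin binds thrombin on the cell surface and turns it from a clotting enzyme into an activator of protein C, an anticoagulant protease that works with protein S. It is best known from endothelium and is also made by monocytes and macrophages, and the factors KLF2 and KLF4 raise its transcription in endothelium.

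Both genes are on the reverse strand of GRCm39. The measured transcript of Cd93 (ENSMUSG00000027435, ENSMUST00000099269) is protein-coding, spans chr2:148278560-148285546 and has 2 exons with 6740 bases in all. That of Thbd (ENSMUSG00000074743, ENSMUST00000099270) is protein-coding, spans chr2:148246386-148250108 and has a single exon of 3723 bases. The transcripts are 28451 bases apart, with 1 processed pseudogene and 0 protein-coding genes between them, and no other annotated gene overlaps either of these transcripts. A read of one can thus not be counted for the other by overlap. The guide that separates the genotypes targets another chromosome. It is shown because every NFKBIE-ko value below rests on it, with the bases NGG that Cas9 needs beside the target (the PAM) in capitals:

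Nfkbie guide: agtgattcacgaagccccgtCGG

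It matches the forward strand of exon 2 of Nfkbie at chr17:45869436-45869455, and this is the only site of the GRCm39 genome where the guide matches in full beside an NGG.

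Total estimated counts per library ranged from 24036386 to 26580957. In all 30 pairs of libraries of one group the counts differed beyond sampling noise (chi-square per degree of freedom from 10.8 to 88.5). The 8 B-cell markers examined, among them Cd79a, were in the table and summed to 1477 to 3770 CPM (counts scaled to a common library size) in every library, which fits the labelled cell type. The targeted gene was lower in NFKBIE-ko than in NFKBIE-wt in the PC (a difference of -0.68 on the log2 scale, adjusted p = 0.0248 by edgeR's quasi-likelihood test and the Benjamini-Hochberg method) and did not pass the test in the spleen (0.19, adjusted p = 0.910 by edgeR), and in vitro its difference of -1.15 did not pass either (adjusted p = 0.863 by edgeR). An edited exon need not lower the RNA, and the NFKBIE-ko libraries of the spleen are named by their label.

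In 2 of the 22 libraries the expression of 9464 genes was more like another compartment than like that of the label. The library labelled NFKBIE-wt spleen replicate 4 had a median correlation of 0.962 with the in vitro libraries and of 0.895 with the other spleens. Its 7 erythroid markers summed to 5.57 CPM, against 241 to 1968 CPM in the other NFKBIE-wt spleens. Replicate 3 of the libraries labelled NFKBIE-wt in vitro had a median correlation of 0.923 with the spleens and of 0.861 with the other in vitro libraries, and its erythroid markers summed to 1200.2 CPM against 6.38 to 23.7 CPM in the other cultures. Both libraries were kept under their labels, and the main values that use them are also given without them. For the targeted gene, Nfkbie, the levels show their weight. In vitro it measured 92.2, 119 and 29.9 CPM in NFKBIE-wt replicates 1 to 3 and at most 40.5 CPM in NFKBIE-ko. Without replicate 3 its genotypes did not overlap there. In the NFKBIE-wt spleens Nfkbie measured 101.6 CPM in replicate 4 and 40.6 to 49.7 CPM in the others. The NFKBIE-ko spleens, at 31.1 to 81.8 CPM, overlapped these with or without replicate 4. An exchange of the labels would move a Cd93 level of 190.4 CPM from the spleens to the cultures and one of 52.3 CPM the other way, and whether the labels were exchanged was not tested.

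Levels are in CPM scaled by TMM, a method that makes libraries comparable. Cd93 was lowest in the NFKBIE-ko spleens. There it measured 3.88, 5.99, 2.97 and 3.27 CPM in the 4 libraries, from 73 to 157 counts. In the NFKBIE-wt spleens it measured 38.4, 40.7, 50.8 and 190.4 CPM. The last of these is the library that resembled the cultures, and even the lowest NFKBIE-wt spleen lay above the highest NFKBIE-ko spleen.

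In the PC the order of the genotypes was the opposite. Cd93 measured 33.6, 38.7, 42.7 and 40.7 CPM in the NFKBIE-wt libraries and 69.2, 92.0, 56.5 and 66.9 CPM in the NFKBIE-ko libraries, again without overlap. In vitro it measured 214, 44.1 and 52.3 CPM in the NFKBIE-wt cultures and 24.0, 25.8 and 29.6 CPM in the NFKBIE-ko cultures. All NFKBIE-ko cultures lay below all NFKBIE-wt cultures. NFKBIE-wt in vitro replicate 1, at 5536 counts, held the highest Cd93 level of the series. The group means were 80.1 ± 73.7 CPM (SD, n = 4) and 4.03 ± 1.36 CPM (SD, n = 4) for NFKBIE-wt and NFKBIE-ko in the spleen, 38.9 ± 3.88 CPM (SD, n = 4) and 71.2 ± 14.9 CPM (SD, n = 4) in the PC, and 104 ± 95.9 CPM (SD, n = 3) and 26.5 ± 2.88 CPM (SD, n = 3) in vitro. Without the 2 libraries that resembled another compartment, the NFKBIE-wt means were 43.3 ± 6.61 CPM (SD, n = 3) in the spleen and 129 ± 120 CPM (SD, n = 2) in vitro.

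Thbd was a rarer transcript with the same order of the genotypes. In the spleen it measured 4.66, 4.34, 5.68 and 12.1 CPM in the NFKBIE-wt libraries and 0.874, 0.420, 0.692 and 0.500 CPM in the NFKBIE-ko libraries. These last values rest on 23, 11, 17 and 13 counts. For the lowest, 11 counts, the exact Poisson interval at 95% runs from 5.49 to 19.7 counts and covers counting error only. No NFKBIE-ko spleen reached the lowest NFKBIE-wt spleen.

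In the PC, Thbd measured 8.42, 3.82, 7.94 and 10.6 CPM in the NFKBIE-wt libraries and 16.0, 22.2, 19.3 and 16.8 CPM in the NFKBIE-ko libraries. All NFKBIE-ko libraries were higher. In vitro it measured 30.8, 0.579 and 6.83 CPM in the NFKBIE-wt cultures and 1.04, 0.732 and 1.10 CPM in the NFKBIE-ko cultures. Here the genotypes overlapped, since NFKBIE-wt in vitro replicate 2, with 15 counts, lay below all 3 NFKBIE-ko cultures. NFKBIE-wt in vitro replicate 1 was again the highest library of the series, with 795 counts. The means were 6.69 ± 3.65 CPM (SD, n = 4) for NFKBIE-wt and 0.621 ± 0.203 CPM (SD, n = 4) for NFKBIE-ko in the spleen, 7.70 ± 2.83 CPM (SD, n = 4) and 18.6 ± 2.81 CPM (SD, n = 4) in the PC, and 12.7 ± 15.9 CPM (SD, n = 3) and 0.958 ± 0.197 CPM (SD, n = 3) in vitro. Without the same 2 libraries, the NFKBIE-wt means were 4.89 ± 0.703 CPM (SD, n = 3) in the spleen and 15.7 ± 21.3 CPM (SD, n = 2) in vitro.

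**Figure D1:**
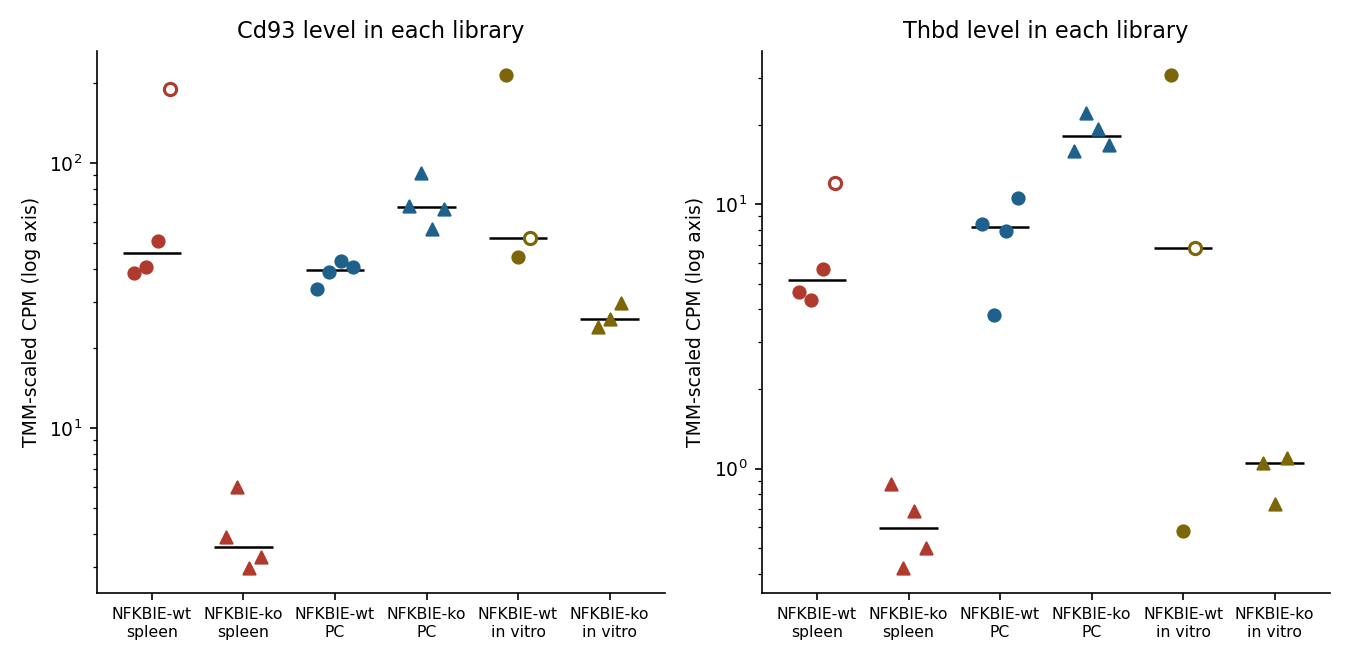
TMM-scaled CPM of Cd93 and of Thbd on a log axis in each of the 22 libraries, by genotype and compartment; open symbols mark the 2 libraries that resembled another compartment and lines the group medians. The NFKBIE-ko spleens hold the lowest Cd93 values (2.97 to 5.99 CPM), and the NFKBIE-ko PC libraries lie above the NFKBIE-wt PC libraries for both genes.

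Ordered by the median of its libraries, Cd93 ran from NFKBIE-ko PC (68.1 CPM) through NFKBIE-wt in vitro (52.3 CPM), NFKBIE-wt spleen (45.7 CPM) and NFKBIE-wt PC (39.7 CPM) to NFKBIE-ko in vitro (25.8 CPM) and NFKBIE-ko spleen (3.57 CPM). Neighbours among the first 4 groups overlapped, whereas the last 2 groups each lay wholly below the group before them. For Thbd the order ran from NFKBIE-ko PC (18.1 CPM) to NFKBIE-wt PC (8.18 CPM), NFKBIE-wt in vitro (6.83 CPM), NFKBIE-wt spleen (5.17 CPM), NFKBIE-ko in vitro (1.04 CPM) and NFKBIE-ko spleen (0.596 CPM). Only NFKBIE-ko PC and NFKBIE-wt PC, and NFKBIE-wt spleen and NFKBIE-ko in vitro, were neighbours without overlap. Without the 2 libraries that resembled another compartment, NFKBIE-wt in vitro came first for Cd93 (median 129 CPM), and NFKBIE-wt in vitro came second for Thbd (median 15.7 CPM). The lowest 2 groups stayed as they were for both genes.

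Per kilobase of transcript, which allows a comparison between the genes, Cd93 stood above Thbd in all 22 libraries. The ratio of the levels per kilobase had a median of 2.24 (1.62 to 2.39) in NFKBIE-ko PC and of 2.59 (2.12 to 5.60) in NFKBIE-wt PC. It was 3.03 (2.37 to 7.88) in NFKBIE-ko spleen and 5.06 (4.56 to 8.70) in NFKBIE-wt spleen. The NFKBIE-ko cultures had a ratio of 14.9 (12.7 to 19.4), above every in vivo library. In the NFKBIE-wt cultures the ratio was 3.85 and 4.23 in 2 libraries and 42.1 in replicate 2, the culture with almost no Thbd. The genes thus kept neither one ratio across the groups nor one within the NFKBIE-wt cultures.

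The size of the genotype difference was taken from a fit of all transcripts in each compartment, as a description of the contrast that chose the genes. In the spleen, Cd93 had a log2 fold change of -4.31 (standard error 0.62), a level 19.8-fold lower in NFKBIE-ko, and Thbd one of -3.41 (standard error 0.46), 10.7-fold lower. In the PC the values were 0.83 (standard error 0.14) for Cd93, 1.78-fold higher in NFKBIE-ko, and 1.23 (standard error 0.28) for Thbd, 2.35-fold higher. In vitro they were -1.99 (standard error 0.64) and -3.75 (standard error 1.30), the latter for Thbd, whose genotypes overlapped there. Standard errors here and below were obtained as the size of the log2 fold change divided by the square root of the F statistic.

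Groups without overlap were common. Among all transcripts, 4.82% of those fitted in the spleen were lower in every NFKBIE-ko library than in every NFKBIE-wt library, 13.2% in the PC were higher in every NFKBIE-ko library, and 6.62% in vitro were lower. Since the genes were chosen on these contrasts, nothing is read from their place among them. Without the 2 libraries that resembled another compartment, the spleen values were -3.43 (standard error 0.28) for Cd93 and -2.98 (standard error 0.37) for Thbd, and the in vitro values -2.29 (standard error 0.64) and -4.03 (standard error 1.44). Without NFKBIE-wt in vitro replicate 1, the in vitro values shrank to -0.89 for Cd93 and -1.98 for Thbd. With any 1 PC library left out, Cd93 stayed between 0.69 and 0.91 and Thbd between 1.01 and 1.39.

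**Figure D2:**
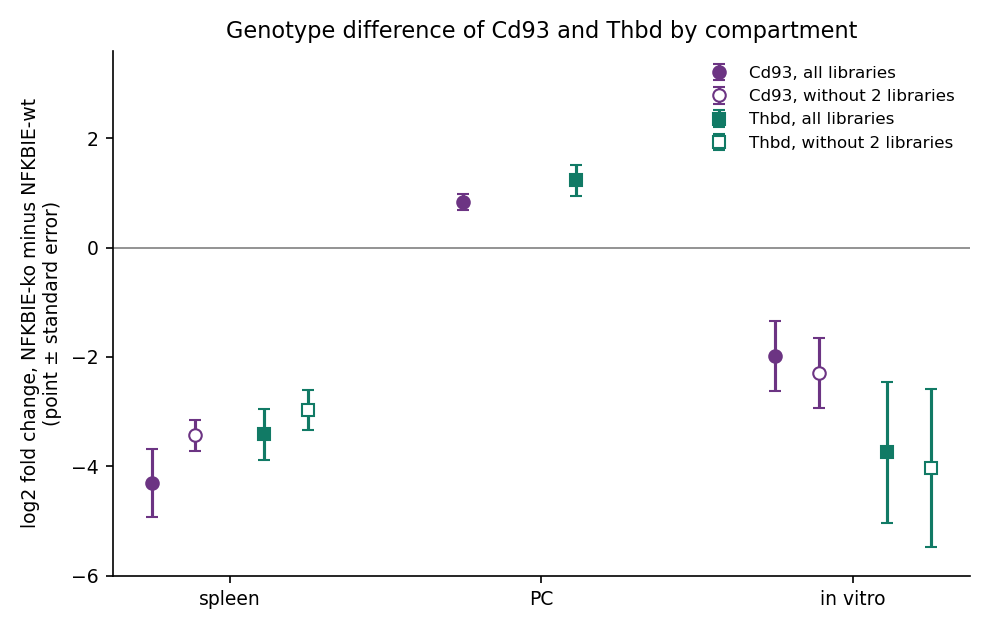
Log2 fold change of NFKBIE-ko against NFKBIE-wt for Cd93 and Thbd in the spleen, the PC and in vitro, with bars of 1 standard error; open symbols are fits without the 2 libraries that resembled another compartment. Values are negative in the spleen and in vitro (-4.31 and -1.99 for Cd93) and positive in the PC (0.83 for Cd93 and 1.23 for Thbd).

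Across the 22 libraries, log2 CPM of Cd93 and Thbd had a Pearson correlation of 0.80 and a Spearman correlation of 0.84. These points come from 6 groups, and those of a group share genotype, compartment and source. After the mean of each group was taken away, the correlations were 0.70 (Pearson) and 0.52 (Spearman) over the same 22 libraries. They were 0.81 and 0.39 over the 20 left without the 2 libraries that resembled another compartment. Of the NFKBIE-wt cultures only replicates 1 and 2 are among these 20, so their deviations mirror each other. They lie far apart, at 214 and 44.1 CPM of Cd93 and 30.8 and 0.579 CPM of Thbd. How much of the 0.81 rests on this pair was not tested. Within the spleen the correlations were 0.98 and 0.81 over 8 libraries, and within the PC 0.82 and 0.79 over 8. In both of these compartments the libraries fall apart by genotype. In vitro they were 0.91 and 0.60 over 6 libraries. The NFKBIE-ko libraries alone had 0.83 and 0.86, and the NFKBIE-wt libraries alone 0.61 and 0.37, over 11 each. The ranks of the members were thus only loosely tied among the NFKBIE-wt libraries, and the difference between the genotypes was not tested.

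Pearson's correlation over all groups moved little with the libraries chosen. It was 0.80 without the 2 libraries that resembled another compartment, and between 0.77 and 0.85 with any 1 library left out, the ends being reached without replicate 1 and without replicate 2 of the NFKBIE-wt cultures. Without the 2 libraries farthest from the median of Cd93, NFKBIE-ko spleen replicates 3 and 4, it was 0.77. For comparison, 9264 pairs of adjacent protein-coding genes with a mean of at least 5 CPM had a median correlation of 0.13 over the same libraries, with quartiles of -0.21 and 0.46. Cd93 and Thbd are one of these pairs, and they were picked for their joint movement.

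**Figure D3:**
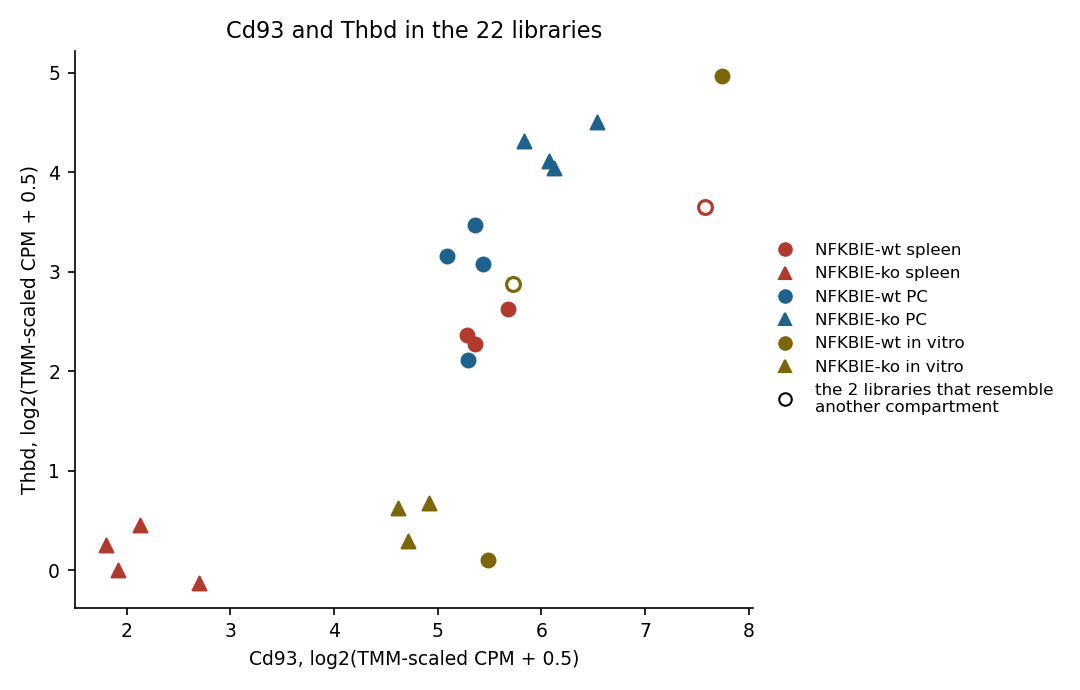
Thbd against Cd93, both as log2 of TMM-scaled CPM plus 0.5, with 1 point per library. Colour gives the compartment, circles are NFKBIE-wt and triangles NFKBIE-ko, and open symbols mark the 2 libraries that resembled another compartment. NFKBIE-ko spleens lie at the lower left and NFKBIE-ko PC libraries at the upper right, while NFKBIE-wt in vitro replicate 2 (Cd93 44.1 CPM, Thbd 0.579 CPM) lies far below the other NFKBIE-wt points.

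Other genes followed each member more closely than the neighbour did. Among 9463 genes with a mean of at least 5 CPM, the pattern most like that of Cd93 was that of St8sia4, a polysialyltransferase, with a Pearson correlation of 0.919 over the 22 libraries. It was followed by Cnn3, the actin-binding calponin 3 (0.908), Insr, the insulin receptor (0.899), Itgav, integrin alpha V (0.898), and Sike1, a suppressor of the kinase IKKε (0.898). Thbd ranked 55. For Thbd the closest were Ostm1, a partner of a lysosomal chloride channel (0.911), Ssr3, a subunit at the protein translocon (0.903), Twf1, an actin monomer-binding twinfilin (0.903), Selplg, the P-selectin ligand (0.893), and Cnn3 again (0.890), and Cd93 ranked 32. Cnn3 was the one gene named for both members. It measured 4.64 to 6.31 CPM in the NFKBIE-ko spleens and 20.4 to 43.0 CPM in the NFKBIE-wt spleens, but its ranges in the PC, 28.5 to 35.5 CPM in NFKBIE-wt and 25.9 to 38.1 CPM in NFKBIE-ko, overlapped. Without the 2 libraries that resembled another compartment, the correlations of these genes lay between 0.883 and 0.932.

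The compartments were also set side by side as the mean over both genotypes, from a fit of 43582 transcripts in all 22 libraries. Since the genes were chosen for their pattern over these libraries, the values are a description, without a test. Cd93 had a log2 fold change of -1.55 (standard error 0.35) in the spleen against the PC, a 2.93-fold lower level, and Thbd one of -2.55 (standard error 0.49), a 5.84-fold lower level. With any 1 library left out, Cd93 stayed between -1.98 and -1.45 and Thbd between -2.76 and -2.45. A fit of the spleen and PC libraries alone used genotype and replicate number together as a block. Its values were -1.78 (standard error 1.03) and -2.51 (standard error 0.97), with standard errors larger than in the fit of all libraries. They were -2.02 and -2.80 without the 2 libraries that resembled another compartment. This mean describes neither genotype by itself. In NFKBIE-wt, Cd93 medians were 45.7 CPM in the spleen and 39.7 CPM in the PC, with overlap, against 3.57 and 68.1 CPM in NFKBIE-ko.

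In culture the members had unlike values. Against the PC, Thbd had -1.77 (standard error 0.53) and Cd93 -0.0076 (standard error 0.37). Against the spleen, Cd93 had 1.54 (standard error 0.37) and Thbd 0.77 (standard error 0.51). Without the 2 libraries that resembled another compartment, Cd93 had 0.12 and Thbd -1.65 against the PC, and 2.14 and 1.15 against the spleen. Without NFKBIE-wt in vitro replicate 1, Cd93 had 1.00 and Thbd -0.10 against the spleen. The 3 comparisons share their libraries, and the fit treats every library as a separate sample, since the labels do not tie them to mice. Below, a transcript is named as called at an adjusted p below 0.05 with a log2 fold change beyond 1. Of all transcripts, 7.22% were called lower in the spleen than in the PC, 7.49% lower in vitro than in the PC and 1.05% higher in vitro than in the spleen, and nothing is read from the place of the members among them.

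Macrophages and monocytes can express both genes, and their markers moved with them in the PC. In bulk samples, fewer cells of a type and less RNA per cell cannot be told apart. The 16 markers of the list, among them Adgre1, Csf1r, Lyz2 and the C1q genes, were all in the table. They summed to 583 to 1767 CPM in NFKBIE-wt PC and 3770 to 5922 CPM in NFKBIE-ko PC, and 8 of 16 were called higher in NFKBIE-ko and 0 lower, against 7.75% and 2.24% of the main transcripts of all genes. Of 10 markers of large peritoneal macrophages, such as Gata6 and Timd4, 5 were called higher, and their sums were 36.3 to 124 CPM in NFKBIE-wt PC and 245 to 491 CPM in NFKBIE-ko PC. The 5 mesothelial markers in the table summed to 9.23 to 14.6 CPM and 118 to 171 CPM in the same groups. Of the 2 tested, 1 was called higher in NFKBIE-ko and 1 lower, so the list did not move as one. Neutrophil sums went the other way, from 141 to 410 CPM to 9.13 to 29.0 CPM. Of 7 neutrophil markers tested, 5 were called lower in NFKBIE-ko. The part of these cells in the higher Cd93 and Thbd of NFKBIE-ko PC was not tested.

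Divided by the macrophage and monocyte sum of the same library, both members were lower in NFKBIE-ko PC than in NFKBIE-wt PC. Cd93 then had 0.0190 to 0.0664 in NFKBIE-wt and 0.0127 to 0.0183 in NFKBIE-ko, and Thbd 0.00477 to 0.00767 and 0.00352 to 0.00435, all without overlap. In the spleen the markers and the members went opposite ways. The macrophage and monocyte sum was 30.3 to 98.8 CPM in NFKBIE-wt spleens and 110 to 391 CPM in NFKBIE-ko spleens, whose Cd93 and Thbd were the lowest. The 30.3 CPM belong to NFKBIE-wt spleen replicate 4, the library that resembled the cultures. By edgeR, 0 of 14 markers tested were called in the spleen (2 higher at an unadjusted p below 0.05, and 1 higher by DESeq2). Of the 14, 13 had a positive log2 fold change and 1 a negative one, with a median of 1.59 against 0.05 for all main transcripts. Of all main transcripts, 0.65% were called between the genotypes in the spleen and 0% in vitro, in either direction. In vitro the sums were 66.7 to 96.0 CPM in NFKBIE-wt and 64.4 to 91.1 CPM in NFKBIE-ko. The sums of the NFKBIE-wt spleens overlapped those of the cultures. Of the 16 markers, 7 were at 0 in all 3 NFKBIE-ko cultures, among them Cd14, Fcgr1, C1qa and C1qc. Cd93 was at 24.0 to 29.6 CPM in these cultures. By edgeR 0 of 7 markers tested were called in vitro (1 lower at an unadjusted p below 0.05, and 1 lower by DESeq2, Lyz2). The part of macrophages and monocytes in the Cd93 and Thbd of the spleens and cultures was not tested. The 11 endothelial markers in the table summed to 26.5 to 35.6 CPM in NFKBIE-wt PC and 49.0 to 58.9 CPM in NFKBIE-ko PC. There 1 of 3 tested was called higher and 0 lower by edgeR, against 7.75% and 2.24% of all main transcripts. In the spleen they summed to 19.8 to 36.5 CPM in NFKBIE-wt and 19.5 to 36.2 CPM in NFKBIE-ko. The sums in vitro were 25.3 to 37.4 CPM and 28.1 to 32.3 CPM. The part of endothelial cells in the levels of Cd93 and Thbd was not tested.

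**Figure D4:**
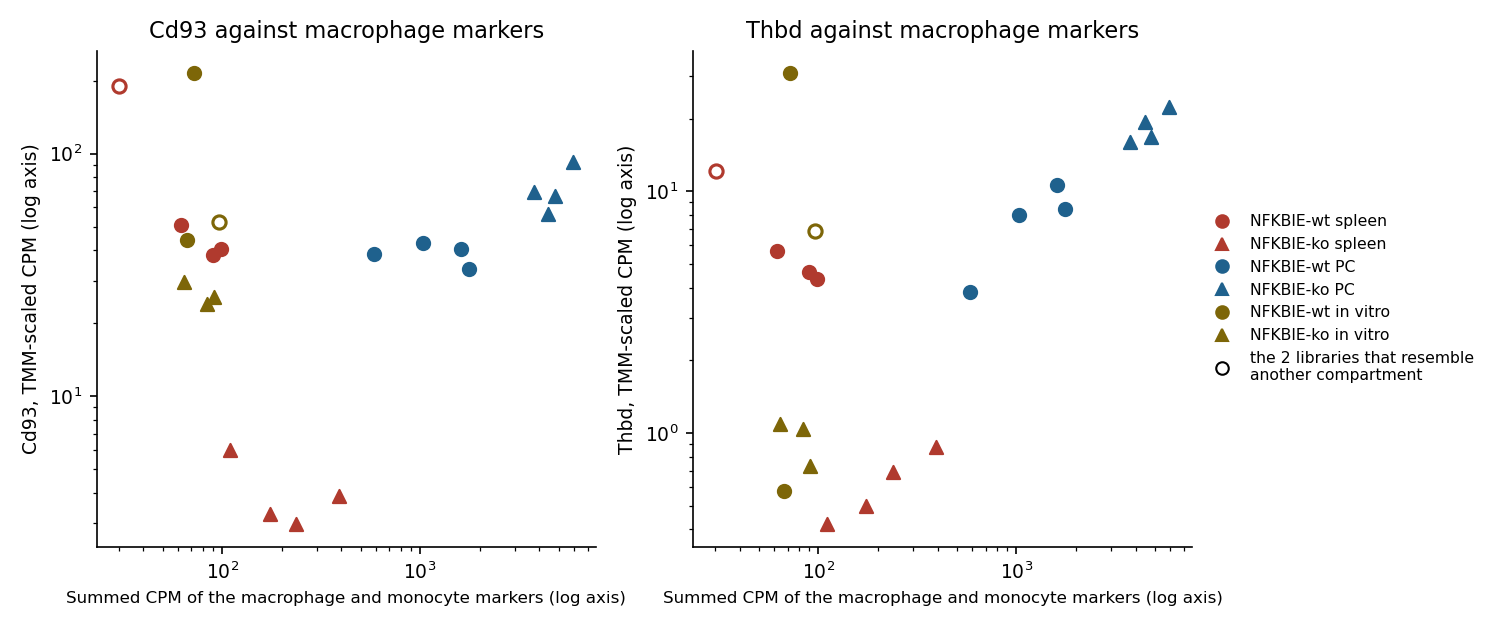
Cd93 and Thbd (TMM-scaled CPM, log axis) against the summed CPM of the 16 macrophage and monocyte markers (log axis) in each library. Colour gives the compartment, circles are NFKBIE-wt and triangles NFKBIE-ko, and open symbols mark the 2 libraries that resembled another compartment. In the PC the NFKBIE-ko libraries lie to the upper right of the NFKBIE-wt libraries, whereas NFKBIE-ko spleens, at sums of 110 to 391 CPM, lie below NFKBIE-wt spleens, at 30.3 to 98.8 CPM.

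Markers of plasma cells, which depend on CD93, were in part lower in the NFKBIE-ko spleens, where Cd93 was lower too. Of 7 tested, 2 were called lower and 0 higher, against 0.317% and 0.334% of all main transcripts, and 6 of 7 had a negative log2 fold change, with a median of -1.10 against 0.05 for all main transcripts. Sdc1, the plasma cell surface proteoglycan syndecan-1, measured 6.62, 5.77, 8.19 and 9.60 CPM in the NFKBIE-wt spleens and 1.03, 1.64, 2.12 and 1.62 CPM in the NFKBIE-ko spleens (log2 fold change -2.23, standard error 0.31, adjusted p = 0.0328 by edgeR). Jchain, the joining chain of secreted IgM and IgA, averaged 12.1 ± 5.96 CPM (SD, n = 4) in NFKBIE-wt and 2.09 ± 0.629 CPM (SD, n = 4) in NFKBIE-ko (-2.53, standard error 0.40, adjusted p = 0.0492 by edgeR). Genotypes did not overlap for either gene. Each call was lost in 7 of the 8 fits that left out 1 spleen library (highest adjusted p = 0.133 and 0.183 by edgeR). Both held only without NFKBIE-wt spleen replicate 4, the library that resembled the cultures (adjusted p = 0.0413 and 0.0436 by edgeR).

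In vitro the 7 plasma cell markers all had a negative log2 fold change, with a median of -1.20 against -0.0041 for all main transcripts. By edgeR 0 of 7 were called, as was 0% of all main transcripts in either direction (4 of the 7 were lower at an unadjusted p below 0.05, and 0 by DESeq2). NFKBIE-wt in vitro replicate 1, the library with the highest Cd93 and Thbd, also had the highest Sdc1 (33.2 CPM) and Jchain (44.6 CPM) of the cultures. In the PC, where Cd93 was higher in NFKBIE-ko, the median was -0.38 and 0 of 7 were called by edgeR (2 lower at an unadjusted p below 0.05, and 0 by DESeq2). The markers of immature B cells, the other B-lineage stage with CD93, gave 0 calls among 6 tested in the spleen by edgeR (1 lower at an unadjusted p below 0.05, and 0 by DESeq2), 1 higher (Bst1) and 1 lower (Il7r) of 6 in the PC, where 7.75% of all main transcripts were called higher and 2.24% lower, and 0 in vitro by edgeR (1 lower at an unadjusted p below 0.05, and 0 by DESeq2). Whether plasma cell-like states take part in the levels of Cd93 was not tested.

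Most of the tested genes around thrombomodulin and protein C rose in NFKBIE-ko PC, where Thbd was higher. Of 22 genes listed, 19 were in the table and 13 were tested, of which 9 were called higher and 0 lower, against 7.75% and 2.24% of all main transcripts, with a median log2 fold change of 1.62 against 0.07 for all main transcripts. The largest change was that of C3, the central complement component. It measured 48.9, 19.2, 33.2 and 56.6 CPM in NFKBIE-wt PC and 554, 953, 393 and 493 CPM in NFKBIE-ko PC (log2 fold change 3.88, standard error 0.41, adjusted p = 0.00104 by edgeR). Each NFKBIE-ko library stood far above all NFKBIE-wt libraries.

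Among the substrates and cofactors, F5, coagulation factor V, which activated protein C inactivates, rose from 1.86 ± 0.19 to 8.37 ± 2.80 CPM (SD, n = 4 each; log2 fold change 2.13, adjusted p = 0.00238 by edgeR). F5 is also one of the 10 markers of large peritoneal macrophages. Pros1, the cofactor protein S, rose from 4.73 ± 2.35 to 15.4 ± 2.44 CPM (SD, n = 4 each; 1.66, adjusted p = 0.0338 by edgeR). F10, factor X, and F7, factor VII, rose by 1.60 and 1.87 on the log2 scale. In fibrinolysis, Plaur, the urokinase receptor, rose from 16.0 ± 4.63 to 40.9 ± 8.38 CPM (SD, n = 4 each; 1.31, adjusted p = 0.00601 by edgeR), and Plau, urokinase itself, rose by 1.62. With any 1 PC library left out, 6 to 9 genes of the list were called. F7 and Pros1 lost the call in 6 of 8 such fits each (highest adjusted p = 0.0824 and 0.0901 by edgeR). The macrophage and monocyte sums given above rose in the same libraries, and their part in these 9 genes was not tested.

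The list gave no call between the genotypes in the spleen or in culture. Calls were rare or absent there among all main transcripts too (0.334% higher and 0.317% lower in the spleen, 0% in vitro). In the spleen, where Thbd was lower in NFKBIE-ko, 0 of 11 genes tested were called by edgeR (2 higher and 0 lower at an unadjusted p below 0.05, and 1 higher by DESeq2), and the median was 0.57 against 0.05 for all main transcripts, or 0.17 without the 2 libraries that resembled another compartment. C3 measured 0.339 to 5.24 CPM in the NFKBIE-wt spleens and 13.1 to 118 CPM in the NFKBIE-ko spleens, without overlap, but did not pass (4.00, standard error 0.92, adjusted p = 0.147 by edgeR; it is the gene DESeq2 called). In vitro 0 of 7 genes tested were called by edgeR (0 at an unadjusted p below 0.05, and 0 by DESeq2), with a median of -0.58 against -0.0041, or -0.20 without the same libraries. Procr, the endothelial protein C receptor that presents protein C to thrombomodulin, had 0 to 26 counts in every library, at most 0.988 CPM, and Proc, protein C itself, was not in the table.

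Across compartments, most called genes of the pathway were lower outside the PC, as Thbd was. In the spleen against the PC, 2 of 14 genes tested were called higher and 8 lower, with a median log2 fold change of -2.31 against -0.03 (-1.11 without the 2 libraries that resembled another compartment), where 4.48% of main transcripts were called higher and 11.1% lower. Those that were higher were Serpinc1, antithrombin (1.77, standard error 0.28, adjusted p = 9.47e-05 by edgeR), and Hmgb1, a nuclear protein that thrombomodulin can bind outside cells (1.10, adjusted p = 2.33e-05 by edgeR), which fell short of the fold with NFKBIE-wt spleen replicate 1 left out (0.97) and with replicate 2 of the NFKBIE-ko spleens left out (0.99). Hmgb1 has processed pseudogenes of near-identical sequence, so its counts are uncertain. In vitro against the PC, 1 was called higher (Serpinc1, 1.66) and 9 lower, with a median of -4.62 against -0.02, where 4.36% of main transcripts were called higher and 12.7% lower. The median was the same with the genes that had no more than 3 counts in any culture at their bound. F7 was at least 124-fold lower in vitro, against 3 counts per library. In vitro against the spleen, 0 were called higher and 5 lower of 14, where 2.05% of main transcripts were called higher and 3.35% lower. The median was -1.97 (-1.70 with the bounds) against -0.05, and 8 were called lower without the 2 libraries that resembled another compartment. Macrophage and monocyte markers went the same way, with 15 of 16 called lower in the spleen than in the PC. Their part in these differences was not tested.

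**Figure D5:**
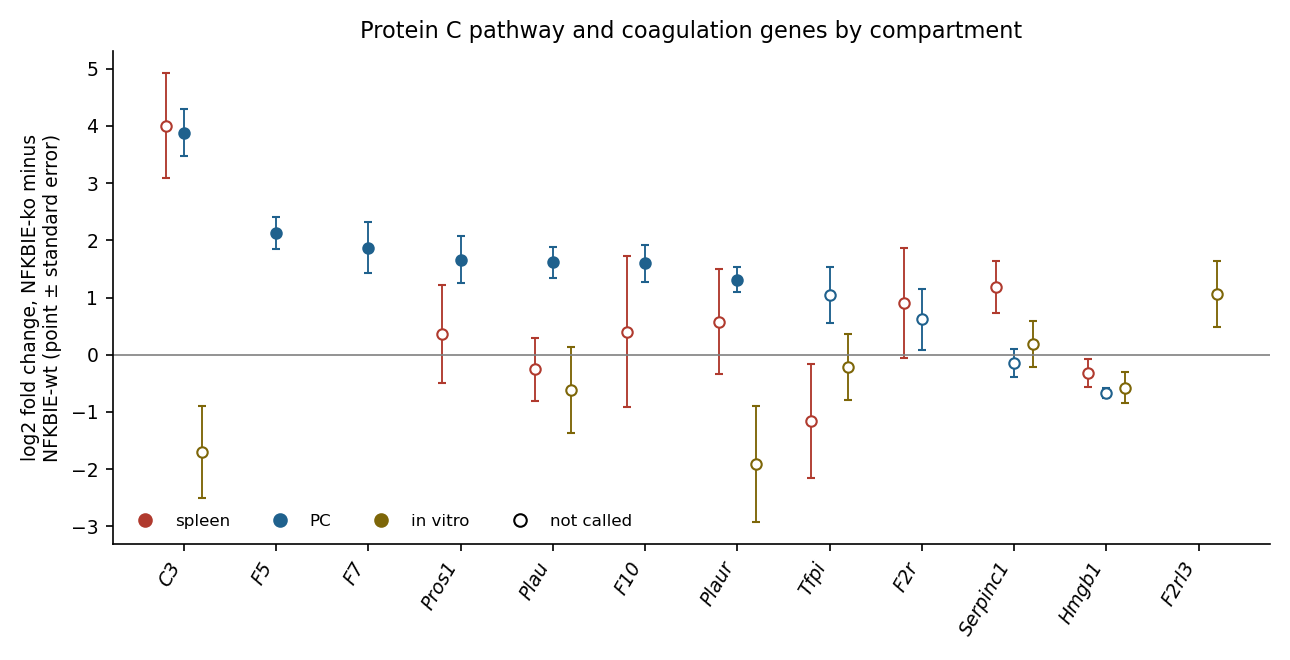
Log2 fold change of NFKBIE-ko against NFKBIE-wt for genes of the thrombomodulin and protein C list in the spleen, the PC and in vitro, with bars of 1 standard error; filled symbols passed the test. Of the 11 genes plotted for the PC, 7 passed, all of them higher in NFKBIE-ko, led by C3 at 3.88. None passed in the spleen or in vitro, where 0.65% and 0% of all main transcripts did.

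Of the ligands and partners of CD93, 1 of 8 genes tested was called higher in the PC and 0 lower, a count near the background of 7.75% and 2.24% of all main transcripts. All 8 had a positive log2 fold change, with a median of 0.59 against 0.07. The gene called was Itgb1, the integrin beta 1 subunit through which CD93 acts on fibronectin, at 341 ± 30.1 CPM (SD, n = 4) in NFKBIE-wt and 756 ± 62.5 CPM (SD, n = 4) in NFKBIE-ko (1.11, standard error 0.08, adjusted p = 0.000173 by edgeR). Msn, moesin, which links CD93 to the actin skeleton, had 0.58 (adjusted p = 0.000803 by edgeR), and Dag1, dystroglycan, 0.60 (adjusted p = 0.0281 by edgeR), both short of the fold required. DESeq2 also called Itga5, the integrin alpha 5 subunit, at 6.40 ± 2.77 CPM (SD, n = 4) in NFKBIE-wt PC and 13.6 ± 3.89 CPM (SD, n = 4) in NFKBIE-ko PC, which did not pass edgeR's test (1.05, adjusted p = 0.0910). In the spleen and in vitro 0 of 8 and 0 of 7 were called by edgeR (0 and 1 lower at an unadjusted p below 0.05, and 0 in both by DESeq2). Of all main transcripts, 0.65% and 0% were called there in either direction. Itga5 was called lower in the spleen than in the PC (-2.99, standard error 0.64, adjusted p = 0.00174 by edgeR). In that comparison 1 of 9 tested was called lower and 0 higher, near the background of 11.1% and 4.48% of main transcripts. Mmrn2, the endothelial ligand multimerin-2, did not pass the filter on low counts, nor did Cd248, the other lectin of the family in the table.

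Of the transcription factors listed for either gene, Klf2 and Klf4 are those named above as activators of Thbd. Klf2 measured 603, 923, 1021 and 43.5 CPM in the NFKBIE-wt spleens and 819, 849, 694 and 637 CPM in the NFKBIE-ko spleens, where Cd93 and Thbd were lowest. The 43.5 CPM belong to the library that resembled the cultures. In vitro Klf2 measured 39.7, 54.8 and 512 CPM in NFKBIE-wt and 41.9, 40.8 and 34.5 CPM in NFKBIE-ko, and it was called lower there than in the PC (-2.35, standard error 0.58, adjusted p = 0.00599 by edgeR) and than in the spleen (-2.97, standard error 0.60, adjusted p = 0.0108 by edgeR). The 512 CPM belong to the library that resembled the spleens, and without both such libraries the values were -3.43 and -4.21. Cd93 and Thbd were at their highest in NFKBIE-wt in vitro replicate 1, where Klf2 was at 39.7 CPM. The part of Klf2 and Klf4 in the levels of Cd93 and Thbd was not tested. Klf4 was at 0 in all 3 NFKBIE-ko cultures, between 0 and 6.90 CPM in the NFKBIE-wt cultures and between 5.95 and 19.1 CPM in the PC libraries. It was called lower in vitro than in the PC (adjusted p = 0.0029 by edgeR) and than in the spleen (adjusted p = 0.0318 by edgeR), the latter lost in 8 of the 22 fits that left out 1 library (highest adjusted p = 0.0835 by edgeR).

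Between the genotypes, 0 of 10 factors tested were called in the PC by edgeR (4 higher and 1 lower at an unadjusted p below 0.05, and 1 higher by DESeq2, Nr1h3, a sterol-sensing receptor). Spi1, the myeloid and B-cell factor PU.1, measured 45.5 ± 13.0 CPM (SD, n = 4) in NFKBIE-wt PC and 86.6 ± 12.3 CPM (SD, n = 4) in NFKBIE-ko PC (0.89, adjusted p = 0.0232 by edgeR), Hif1a, the oxygen-sensing factor, had 0.49 (adjusted p = 0.0155 by edgeR) and Rara, a retinoic acid receptor, 0.62 (adjusted p = 0.0352 by edgeR), all short of the fold required. In the spleen 0 of 9 were called by edgeR (1 higher at an unadjusted p below 0.05, and 0 by DESeq2) and in vitro 0 of 8 by edgeR (3 lower at an unadjusted p below 0.05, and 1 lower by DESeq2, Cebpb). Of all main transcripts, 9.99% were called in the PC, 0.65% in the spleen and 0% in vitro, in either direction. Spi1 and Cebpb, a factor of myeloid cells, were lower in the spleen than in the PC (-1.32 and -1.88, adjusted p = 9.42e-07 and 0.000163 by edgeR) and lower in vitro than in the PC (-1.28 and -3.63).

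The other genes near the pair did not share its pattern. Within 500 kb of either gene the annotation lists 34 more genes, 5 of which had a transcript in the table and 4 of which were tested. In the PC, Napb, a vesicle fusion protein, was called lower in NFKBIE-ko, at 2.52 ± 0.666 against 0.705 ± 0.174 CPM (SD, n = 4 each; -1.87, standard error 0.34, adjusted p = 0.00873 by edgeR). Its 3′ end overlaps that of Gzf1 on the other strand, and whether the counting used strand is not given in the sources used here, so both are uncertain. Gzf1, a zinc finger protein, had -0.76 (adjusted p = 0.00384 by edgeR, short of the fold required). Cst3, the protease inhibitor cystatin C, went the way of the pair without passing, at 105 ± 27.4 CPM (SD, n = 4) in NFKBIE-wt and 169.7 ± 20.0 CPM (SD, n = 4) in NFKBIE-ko (0.65, adjusted p = 0.0528 by edgeR). Nxt1, an RNA export factor, had -0.07.

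In the spleen 0 of these 4 neighbours were called by edgeR (Gzf1 at -0.49 had an unadjusted p below 0.05, and 0 were called by DESeq2), and Cst3 was at 62.1 ± 15.8 CPM (SD, n = 4) in NFKBIE-wt and 76.4 ± 15.4 CPM (SD, n = 4) in NFKBIE-ko, where Cd93 and Thbd were lower. In vitro 0 of 4 were called by edgeR (Gzf1 was lower at an unadjusted p below 0.05, and 0 were called by DESeq2). Of all main transcripts, 0.65% were called between the genotypes in the spleen and 0% in vitro, in either direction. Between compartments, Cst3 was called lower in vitro than in the PC (-1.34, standard error 0.15, adjusted p = 3.51e-06 by edgeR), and 0 of the 4 were called between spleen and PC by edgeR (1 higher and 2 lower at an unadjusted p below 0.05, and 1 lower by DESeq2, Napb). There Cst3 had -0.96 and Nxt1 0.63, both with an adjusted p below 0.05 but short of the fold required. In vitro against the spleen 0 of the 4 were called by edgeR (2 lower at an unadjusted p below 0.05, and 0 by DESeq2).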

How the data were processed

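Per the labels, RNA from 22 samples was made into TruSeq mRNA libraries and sequenced in pairs of reads, and per the submitters' processing notes the authors ran Salmon 1.8 on GRCm39. They deposited estimated counts per transcript without normalization. Salmon divides reads that match several transcripts, and 69.5% of the values were not whole. Each listed transcript was above 0 in at least 5 samples, and 62147 of 62492 matched GENCODE; the others held 0.619% of the counts.

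Values were rounded and fitted with edgeR 4.0.16 in R 4.3.3 (filterByExpr, TMM, robust quasi-likelihood) within each compartment for genotype and over all 22 samples for compartments. A call needed a Benjamini-Hochberg adjusted p below 0.05 over all transcripts and a log2 fold change beyond 1. For other genes the main transcript, that of the highest mean CPM, was used. The fits were tested on simulated data. Correlations use log2(CPM + 0.5). Figures were drawn with matplotlib 3.10.9 in Python 3.11.15.

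Named genes were the members, listed genes that were called or are background, the 5 genes most alike to each member, neighbours within 500 kb, markers beside a result, and Nfkbie. Members and lists were chosen with earlier results of these data known. Per the study, a group of recipient mice was injected for each genotype, and the cultured cells came from different mice. The labels tie no library to a mouse or culture, so p-values measure only the spread between samples, whichever part of it is technical. Spleen and PC cells of a genotype came, per the study, from the same group of recipients. Spleen and PC libraries may thus share mice, which the fit over all samples ignores. Replicate numbers did not clearly pair the samples (closing section). Alternatives were DESeq2 1.42.0, other size factors, no filter, counts per gene, 1 fit of all samples, the replicate number as a block and each library left out. No promoter or protein sequence of the members was used here. Some genes that enter the counts and sums of the lists are not reported here by name. The compartment differences of Cd93 and Thbd are given without a test, since the genes were chosen over the same libraries.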

Additional observations from a re-analysis of the deposited data

Results flagged for a closer look

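In the library labelled NFKBIE-wt spleen replicate 4, Cd93 stood at 190.4 CPM, far from the other 3 NFKBIE-wt spleens at 38.4 to 50.8 CPM. The gap was larger than Dixon's 95% critical value for 4 samples allows, which chance exceeds in about 1 in 20 groups. This is the library whose expression resembled the cultures.

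The direction of the genotype difference was not the same in every compartment. For Cd93 the log2 fold change of NFKBIE-ko against NFKBIE-wt was -4.31 in the spleen and -1.99 in vitro, against 0.83 in the PC, with every NFKBIE-ko library on one side of every NFKBIE-wt library in each of them. For Thbd it was -3.41 in the spleen against 1.23 in the PC, also without overlap. These differences between compartments were not tested, since both genes had been chosen for them.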

How the results depend on the processing

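Counts of called transcripts depended on the tool. Between spleen and PC 4972 were called and 2462 with counts summed per gene, between in vitro and PC 4877 and 2639 per gene. Counts per gene, here and below, are of genes, which are fewer than transcripts, so they do not compare directly. Between in vitro and spleen 1138 were called, 2536 by DESeq2, 3786 without NFKBIE-wt spleen replicate 4 and NFKBIE-wt in vitro replicate 3 (an alternative chosen after seeing the data), and 458 to 2559 with 1 library left out. For the genotype in the spleen the count was 104, against 367 per gene, 915 by DESeq2, 257 without these libraries, 582 in a fit of all 22 samples and 1 to 257 with 1 library left out. In the PC it was 2064, against 3264 by DESeq2, 956 in the fit of all samples and 1494 to 2036 with 1 library left out. In vitro it was 0 (904 at an unadjusted p below 0.05 with the fold), against 5 per gene, 224 by DESeq2 and 30 in the fit of all samples.

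With genotype and replicate number together as a block in the spleen and PC libraries, Cd93 had -1.78 and Thbd -2.51 between these compartments. With the replicate number alone as a block, the genotype counts were 0 in the spleen and 779 in the PC. The numbers did not clearly pair the samples. Across genotypes, deviations from the group means correlated between same-numbered samples at -0.18 to 0.046 in the spleen. The values were -0.053 to 0.017 in the PC and 0.0035 to 0.060 in vitro, and -0.19 to 0.10 between spleen and PC. A sample correlated best with its own number in 0 of 4, 0 of 4 and 2 of 3 pairs across genotypes. Between spleen and PC this held in 3 of 4 (NFKBIE-ko) and 0 of 4 (NFKBIE-wt). Whether the numbers pair spleen and PC in NFKBIE-ko is thus not settled. The cause of the lower counts was not tested.

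With 1 library left out, Cd93 ranged from 1.00 to 1.98 between in vitro and spleen, from -4.58 to -3.43 for the genotype in the spleen and from -2.35 to -0.89 in vitro, and Thbd from -4.30 to -1.98 in vitro. Without the 2 named libraries Cd93 was -3.43 for the genotype in the spleen and 2.14 between in vitro and spleen. The correlation of the members was 0.98 in the spleen alone and 0.91 in vitro alone. No called value changed sign under any alternative. With 1 library left out, the values nearest 0 ranged from -0.58 to 0.15 for Cd93 between in vitro and PC and from -0.10 to 1.06 for Thbd between in vitro and spleen. The counts of Thbd in NFKBIE-ko spleens and cultures, 11 to 28 per library, limit its folds there.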
